A study of Mus musculus with 15 samples.

Results

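Transcript levels of the mouse cytochrome P450 (P450) genes were followed in 4T1 cancer cells and in lung epithelial cells. Members were all protein-coding genes whose symbol is Cyp followed by a family number, a subfamily letter and a gene number, which gave 94 of the 54838 genes in the tables, of which 21998 were protein coding. P450 genes that carry other names or lack the subfamily letter (Cyp51, Tbxas1 and Ptgis) were not members and are given only as partner genes. Of the 94 members, 57 had a count in at least 1 of the 15 libraries and 37 had none in any library.

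P450 enzymes are heme proteins that insert an oxygen atom into small lipophilic molecules, using electrons that reach them through P450 oxidoreductase (Por) in the endoplasmic reticulum or through ferredoxin (Fdx1) in mitochondria. Families 1 to 3 are best known for drugs, combustion products and other foreign chemicals, family 4 for hydroxylating fatty acids and eicosanoids, and further families for making or clearing steroids, bile acids, vitamin D and retinoic acid. In the mouse lung, club cells of the conducting airways are rich in P450 enzymes such as Cyp2f2, which activates naphthalene to a toxic product.

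4T1 cells, which derive from a mammary tumour of the BALB/c strain, were sequenced from cultures in DMEM with serum (in vitro) and after isolation from the lungs of BALB/c mice 7 days after injection into the tail vein (in vivo). Lung epithelial cells, titled by the surface protein EpCAM, were sorted 7 days after tail vein injection of 4T1 cells that label the cells around them, as distal epithelium, as niche epithelium and as a niche group labelled shSox9. All 3 epithelial groups therefore came from lungs that had received 4T1 cells, and each replicate was a pool of 5 lungs. Each group had 3 libraries, of 15907316 to 30421705 counts. The labels do not say which cells carried the Sox9 hairpin, and for 4T1 cells nothing states that replicates came from separate cultures or mice, so their p-values reflect how far these libraries vary, which may be technical variation.

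Some labels and markers bear on how the groups can be read. In the file names these epithelial cells are called AT2, for alveolar type 2, a term the labels do not use, and 8 AT2 markers summed to 328954 to 391381 in transcripts-per-million units (TPM) in distal libraries against 19097 to 24781 in niche libraries. In 4T1 cells in vitro they summed to 24.7 to 35.3 TPM. Sox9 was not lower in the libraries labelled shSox9, at 91.1, 62.3 and 36.8 in counts-per-million units (CPM), than in niche libraries, at 64.9, 58.8 and 33.0 CPM (log2 fold change 0.26, SE 0.27, edgeR adjusted p = 0.548). Sox9 was also read at 352, 412 and 286 CPM in 4T1 cells in vivo and at 4.37, 5.41 and 5.59 CPM in distal libraries. Niche libraries of both kinds may hold 4T1 RNA, estimated below, so Sox9 of epithelial cells and of 4T1 cells cannot be told apart. The libraries of the shSox9 group are therefore called the niche libraries labelled shSox9, and every direction drawn from them rests on that label. In bulk RNA, fewer cells of a type and less RNA per cell cannot be told apart.

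Most P450 genes were at or near 0 in these libraries. A mean above 1 CPM was reached by 8 members in 4T1 cells in vitro, 13 in 4T1 cells in vivo, 24 among distal libraries, 25 among niche libraries and 23 among the niche libraries labelled shSox9. In all, 28 members passed 1 CPM in some group and 66 in none. Of the 28, 7 passed in all 5 groups, 15 in epithelium but in neither 4T1 group, and 13 in both kinds of cell. By role, 7 of the 17 family 4 members (fatty acid and eicosanoid hydroxylases) passed in some group, as did 3 of 23 in the arachidonic acid epoxygenase subfamilies 2C and 2J, 7 of 25 in the remaining family 2, 3 of 10 in the xenobiotic families 1 and 3, 4 of 6 sterol and bile acid enzymes, 2 of 3 vitamin D enzymes and 1 of 3 retinoic acid hydroxylases. None of the 6 steroid hormone synthesis genes (such as Cyp11a1 and Cyp19a1) did. Hepatocyte markers summed to 0.45 to 3.28 TPM in the epithelial libraries, with transthyretin (Ttr) at 0 in all of them.

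Between genes, levels were compared in TPM, which is scaled for transcript length. The summed TPM of the 94 members was 117, 127 and 116 in 4T1 cells in vitro and 129, 129 and 110 in vivo. Distal libraries held 581, 687 and 460 TPM, niche libraries 281, 288 and 296, and those labelled shSox9 287, 279 and 288. The distal libraries therefore lay above all others, and Cyp2f2 alone made up 43.3% of their P450 TPM. Cyp2f2 averaged 250 ± 81.6 TPM there (SD, n = 3), followed by Cyp2b10 at 66.3 ± 15.3, Cyp4b1 at 64.0 ± 18.2, Cyp4f13 at 37.6 ± 5.04 and Cyp2s1 at 35.5 ± 7.12. The spreads of Cyp2b10 and Cyp4b1 overlapped, as did those of Cyp4f13 and Cyp2s1.

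Cyp20a1, an orphan P450 without a settled substrate, had the highest mean in the other groups and held 40.5% of the P450 TPM in vitro, 34.7% in vivo, 16.2% in niche epithelium and 15.9% under the shSox9 label. Its level was 48.6 ± 4.47 TPM in vitro, 42.6 ± 1.99 in vivo, 46.7 ± 6.46 in niche epithelium and 45.3 ± 5.09 under the shSox9 label. In vitro it was followed by Cyp1b1 at 21.2 ± 4.10 TPM, Cyp4f16 at 17.1 ± 0.600, Cyp2c55 at 10.4 ± 2.37 and Cyp4f13 at 7.87 ± 0.741, and in vivo by Cyp4f16 at 22.1 ± 2.27, Cyp4f13 at 18.2 ± 2.25, Cyp2c55 at 12.7 ± 2.67 and Cyp2j6 at 5.12 ± 1.06. In niche epithelium the next were Cyp4f13 at 38.3 ± 2.66 TPM, Cyp4f16 at 29.0 ± 3.69, Cyp7b1 at 26.6 ± 2.92 and Cyp1b1 at 22.4 ± 3.39, and the spreads overlapped between Cyp20a1 and Cyp4f13 and from each of the last 3 to the next. Under the shSox9 label the same 4 genes followed Cyp20a1.

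**Figure D1:**
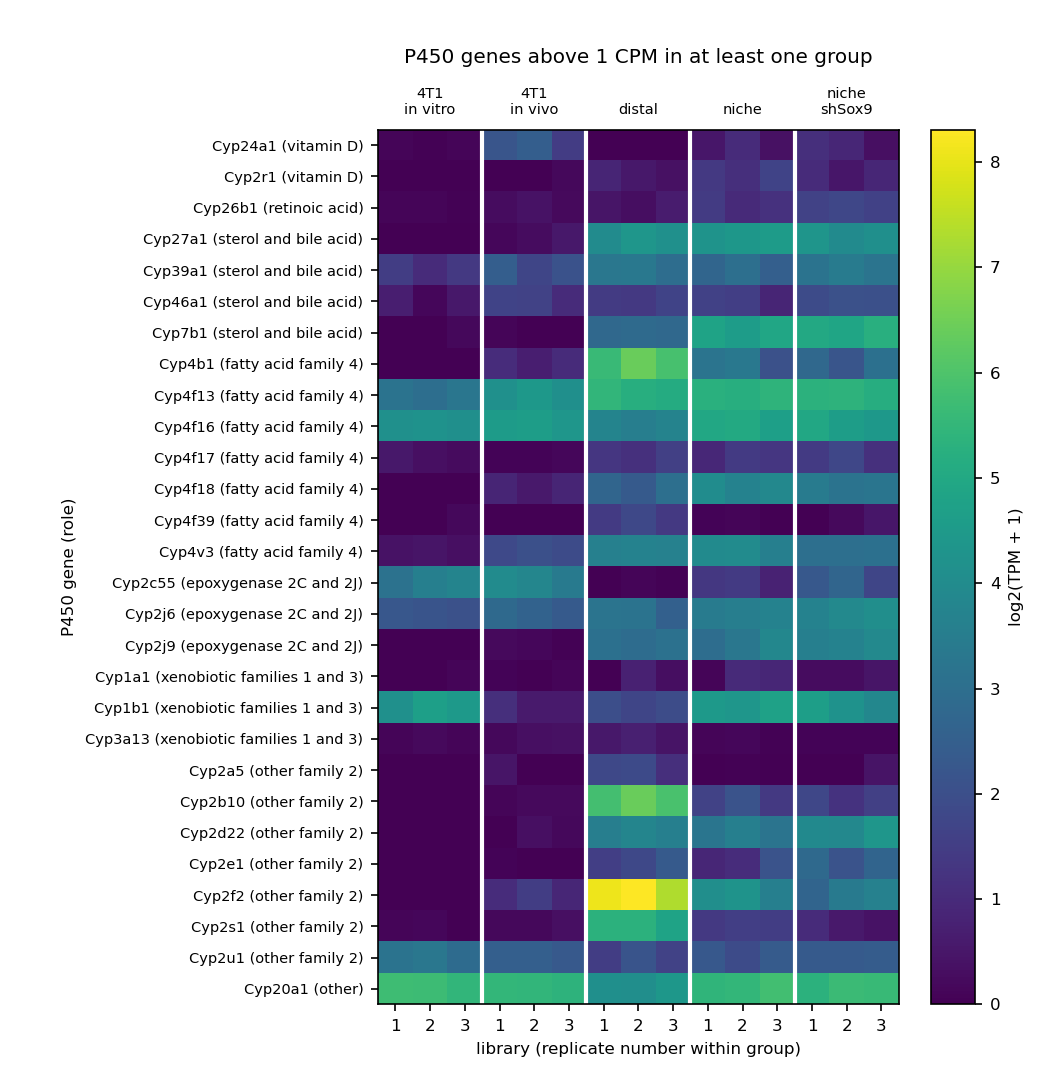
P450 genes above 1 CPM in some group, in rows, with each of the 15 libraries as a column and the colour giving log2(TPM + 1), brighter for higher levels. The distal libraries carry the highest levels of Cyp2f2, Cyp2b10, Cyp4b1 and Cyp2s1, and Cyp20a1 is read in every library.

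The bases before the start sites of 4 members are shown for description, and their part in the differences described next was not tested. Cyp1b1 differed strongly both between the 4T1 groups and between distal and niche epithelium. Cyp1a1, which was low in all groups, is its relative under the same sensor (the aryl hydrocarbon receptor, Ahr). Cyp2f2 and Cyp2b10 led distal epithelium. Sequences are 250 bases before the RefSeq start on GRCm38.p6, read 5′ to 3′ on the gene's strand. Capitals mark 3 motifs searched on both strands. The first is GCGTG, the core to which the aryl hydrocarbon receptor binds. The second is CAAGTG, the core for the lung factor NKX2-1. The last is TATAAA, the letters of a TATA box.
Cyp1b1 (minus strand, chr17:79715062-79715311): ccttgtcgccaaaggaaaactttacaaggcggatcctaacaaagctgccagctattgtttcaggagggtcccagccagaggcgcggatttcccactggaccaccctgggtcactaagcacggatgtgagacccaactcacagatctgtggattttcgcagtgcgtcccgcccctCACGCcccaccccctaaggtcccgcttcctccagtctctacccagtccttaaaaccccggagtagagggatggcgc
Cyp1a1 (plus strand, chr9:57697363-57697612): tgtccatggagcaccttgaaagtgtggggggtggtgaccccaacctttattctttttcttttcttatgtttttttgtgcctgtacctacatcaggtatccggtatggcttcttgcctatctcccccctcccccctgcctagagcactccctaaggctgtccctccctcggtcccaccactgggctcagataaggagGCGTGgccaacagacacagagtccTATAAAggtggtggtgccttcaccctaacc
Cyp2f2 (plus strand, chr7:27119705-27119954): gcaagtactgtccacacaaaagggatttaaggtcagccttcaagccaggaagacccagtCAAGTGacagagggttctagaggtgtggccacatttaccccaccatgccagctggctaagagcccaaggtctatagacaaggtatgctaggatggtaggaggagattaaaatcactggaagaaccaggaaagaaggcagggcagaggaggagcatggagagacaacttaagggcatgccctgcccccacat
Cyp2b10 (plus strand, chr7:25897408-25897657): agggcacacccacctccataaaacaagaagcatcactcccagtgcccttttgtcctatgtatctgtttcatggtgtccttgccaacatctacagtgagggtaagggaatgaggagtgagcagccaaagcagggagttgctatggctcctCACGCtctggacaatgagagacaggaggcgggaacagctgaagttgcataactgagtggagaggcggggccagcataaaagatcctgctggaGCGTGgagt

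These windows held 1 receptor core for Cyp1b1, 1 for Cyp1a1 and 2 for Cyp2b10, 1 NKX2-1 core for Cyp2f2, and TATA box letters for Cyp1a1. Such short letters are common. GCGTG stood in 28.16% of the 32851 RefSeq mouse promoters of this length, CAAGTG in 11.61% and TATAAA in 12.37%. Among the 83 promoters of the 73 members that had one, 16 held GCGTG, 14 CAAGTG and 28 TATAAA. A match is a description of the letters, not a binding site, and the motifs were chosen after the data were seen.

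In 4T1 cells recovered from lung, the xenobiotic enzyme Cyp1b1 was nearly lost, while Cyp24a1, which inactivates vitamin D hormone, appeared, and several fatty acid and sterol hydroxylases were higher. Of the 94 members, 14 passed the filter on low counts, and of these 10 were higher in vivo, 3 were lower and 1 (Cyp2c55) was not called, while 13 did not overlap between the groups. Over all 14022 genes tested with edgeR, 51.0% were called at an adjusted p below 0.05, 27.0% higher and 24.0% lower, and 60.7% did not overlap. The median log2 fold change of the 14 members was 1.11, against 0.01 over all genes tested, but members that passed only through the group where they were high had to differ. Levels below are CPM after scaling between libraries by TMM (trimmed mean of M values), in order of replicate.

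Cyp1b1 lies at chr17:79701537-79715061 on the minus strand and oxidises oestradiol and polycyclic aromatic hydrocarbons. Its level was 53.1, 79.1 and 76.3 CPM in vitro and 3.81, 1.70 and 1.78 CPM in vivo. Every in vivo library thus lay far below every in vitro library. This was a 28.5-fold drop (log2 fold change -4.83, SE 0.29, edgeR adjusted p = 2.32e-06). Ahr, whose activity classically drives Cyp1b1, was higher (log2 fold change 0.77, SE 0.12, adjusted p = 0.00057), and Tiparp, another of its targets, was lower (-0.71, SE 0.11, adjusted p = 0.000477). Cyp1a1 was at most 0.161 CPM in every 4T1 library.

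Cyp24a1 lies at chr2:170482708-170497145 on the minus strand and encodes the hydroxylase that clears vitamin D hormone, which induces it through the receptor Vdr. It was read at 0.195, 0.0694 and 0.181 CPM in vitro and at 8.13, 10.4 and 4.31 CPM in vivo. All in vivo libraries were higher, at 51.8-fold over the in vitro mean (log2 fold change 5.70, SE 0.48, edgeR adjusted p = 1.95e-05). Cyp24a1 passed the filter on low counts only through the in vivo group, so it had to differ and its p-value is no separate support. Vdr itself was higher too, at 17.7 ± 1.53 CPM against 5.65 ± 1.46 (log2 fold change 1.64, SE 0.19, adjusted p = 0.000138). Cyp27b1, which makes the hormone, stayed at or below 0.598 CPM in every 4T1 library and was not tested. Cyp24a1 overlaps Pfdn4 on the opposite strand, and without a stated strand setting their reads cannot be told apart.

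Of the 17 members of family 4, 5 were tested and called higher in vivo, of which Cyp4b1 and Cyp4f18 passed the filter only through the in vivo group. Cyp4v3, a hydroxylase of medium-chain fatty acids, was at 0.779, 1.01 and 0.722 CPM in vitro and 6.25, 7.38 and 7.05 CPM in vivo, so the groups did not overlap (log2 fold change 3.02, SE 0.24, edgeR adjusted p = 1.26e-05). Cyp4f13 rose from 6.75 ± 0.961 to 12.9 ± 1.42 CPM (SD, n = 3, log2 fold change 0.94, SE 0.16, adjusted p = 0.00101). Cyp4f16 read 21.8, 22.5 and 21.8 CPM in vitro against 28.0, 27.5 and 24.6 in vivo, a small difference that was called (log2 fold change 0.28, SE 0.10, adjusted p = 0.0464). Its call was kept only without the in vivo library 3 (adjusted p 0.0861 to 0.16 without any other library) and was also lost with DESeq2 and with no filter on low counts.

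Cyp4b1, a lung enzyme that activates furan toxins, and Cyp2f2 had no count in any in vitro library. Both passed the filter on low counts only through the in vivo group, so they had to differ. In vivo, Cyp4b1 was at 1.27, 0.748 and 1.29 CPM and Cyp2f2 at 1.27, 2.14 and 1.08 CPM, which is at least 26.3-fold and at least 35.7-fold higher when the empty group is set to a floor of 3 counts (edgeR adjusted p = 0.000355 and 0.000279). Cyp4f18, named although it stayed below 1 CPM, was at least 17.7-fold higher by the same rule. These 3 genes and Cyp4v3 are more abundant in lung epithelium. The in vivo level was 14.5% of the niche level for Cyp4b1, 8.94% for Cyp2f2, 5.38% for Cyp4f18 and 21.5% for Cyp4v3.

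Genes of lung epithelium were read in the in vivo 4T1 libraries at low levels. Over 302 genes of at least 20 CPM in distal and niche epithelium and at most 0.2 CPM in vitro, the median in vivo level was 0.473%, 0.581% and 0.902% of the niche level, and 0% in every in vitro library. The corresponding shares of the distal level were 0.455%, 0.543% and 0.878%. Expression of the 302 genes by 4T1 cells themselves in lung would count toward these shares. Before TMM scaling, RNA from distal epithelium at these shares would give 2.25 CPM of Cyp2f2 and RNA from niche epithelium 0.114 CPM, where 1.56 CPM was measured. For Cyp4b1 these values were 0.567 and 0.0515 of 1.15 CPM, for Cyp4f18 0.0424 and 0.0933 of 0.770 CPM, and for Cyp4v3 0.220 and 0.218 of 7.18 CPM. The 7 club cell markers summed to at most 0.01 TPM in vitro and to 26.2 to 43.4 TPM in vivo, with Reg3g and Muc5b at 0, and their part in the rise of Cyp2f2 was not tested beyond these values.

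Sterol hydroxylases were higher in vivo at low levels. Cyp39a1, which hydroxylates oxysterols, read 3.02, 1.66 and 2.53 CPM in vitro and 7.77, 4.04 and 5.60 in vivo, a log2 fold change of 1.28 (SE 0.31, edgeR adjusted p = 0.00661). Cyp46a1, best known for turning over brain cholesterol, rose from 0.312 ± 0.150 to 1.59 ± 0.354 CPM (log2 fold change 2.37, SE 0.46, adjusted p = 0.00216). Neither gene's groups overlapped, but Cyp46a1 passed the filter on low counts only through the in vivo group and so had to differ. Cyp2j6, an epoxygenase, was higher by a log2 fold change of 0.50 (SE 0.16, adjusted p = 0.0254), but the call was lost without any 1 of the in vitro libraries 2 and 3 and the in vivo libraries 1 and 2 (adjusted p 0.0528 to 0.122).

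Cyp2u1, a broadly expressed fatty acid hydroxylase, fell from 17.6, 20.7 and 16.3 CPM in vitro to 11.5, 11.5 and 10.8 CPM in vivo, a log2 fold change of -0.69 (SE 0.13, edgeR adjusted p = 0.00188). Its in vivo libraries agreed closely and lay below all in vitro libraries. Cyp20a1 was lower by a log2 fold change of -0.25 (SE 0.09, adjusted p = 0.0389), a call kept only when the in vitro library 3 was left out and lost without any other library (adjusted p 0.0516 to 0.103). Cyp2c55, an arachidonic acid hydroxylase, read 9.98, 14.5 and 17.2 CPM in vitro and 19.1, 16.1 and 13.2 in vivo, so the groups overlapped (log2 fold change 0.21, SE 0.21, adjusted p = 0.416).

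**Figure D2:**
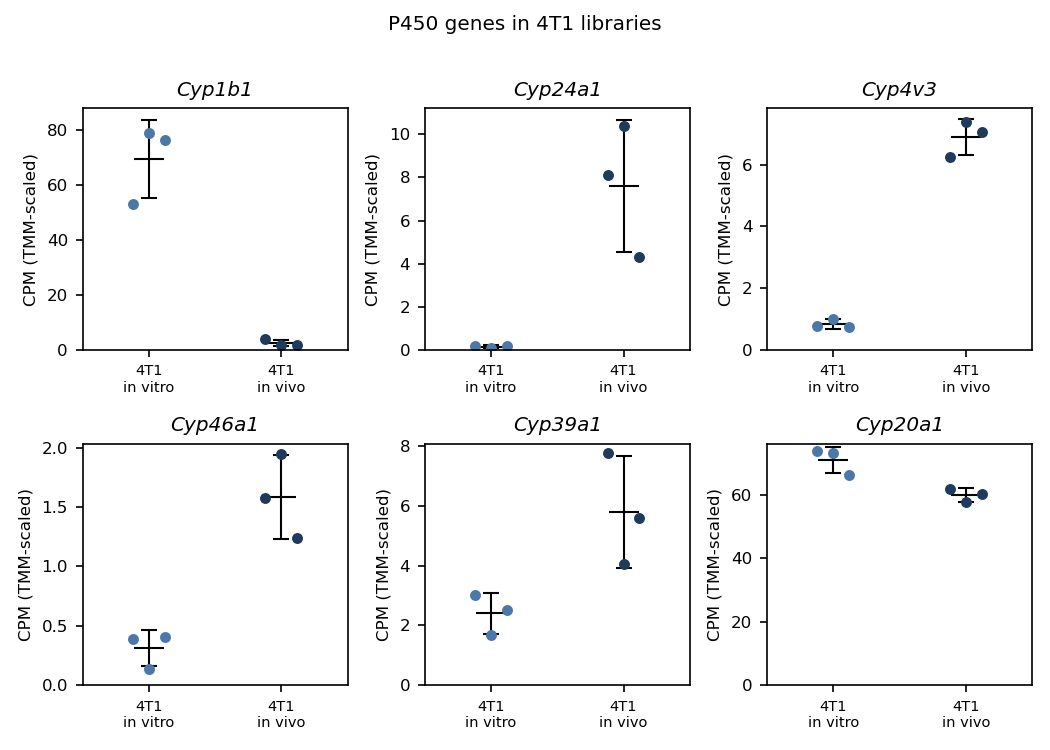
Levels of P450 genes in 4T1 cells, as CPM after TMM scaling on linear axes from 0, with 1 point for each in vitro and in vivo library and bars for the group mean and 1 SD. Cyp1b1 falls from 53.1 to 79.1 CPM in vitro to 1.70 to 3.81 CPM in vivo, and Cyp24a1 rises from below 0.2 CPM to 4.31 to 10.4 CPM.

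**Figure D3:**
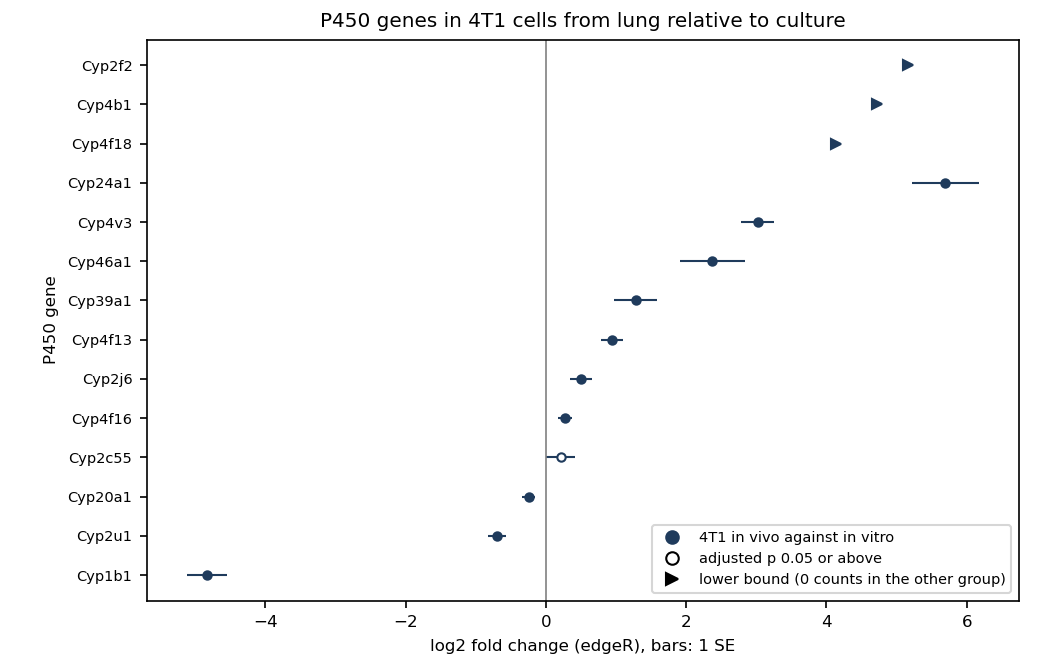
Log2 fold changes of the tested P450 genes in 4T1 cells in vivo against in vitro, with bars of 1 SE and open points where the adjusted p was 0.05 or above. Arrowheads mark lower bounds for Cyp2f2, Cyp4b1 and Cyp4f18, which had no count in vitro.

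Genes that serve P450 enzymes were called in both directions, against 27.0% higher and 24.0% lower over all genes tested. Of 9 redox partners, 5 were lower in vivo, among them the outer mitochondrial membrane cytochrome Cyb5b (log2 fold change -1.02, SE 0.10, edgeR adjusted p = 6.25e-05) and Por (-0.79, SE 0.13, adjusted p = 0.000831). Of 10 heme genes, 3 were higher and 3 lower, the largest fall being that of the heme-degrading Hmox1 at -1.60 (SE 0.28, adjusted p = 0.00125). Of 7 tested genes of retinoid handling, 4 were higher, led by the retinol receptor Stra6 at 7.36 (SE 0.36, adjusted p = 9.17e-07). Stra6, at 0.0834 ± 0.0752 CPM in vitro, passed the filter on low counts only through the in vivo group, so it had to differ. The retinoic acid hydroxylase Cyp26b1 stayed at or below 0.798 CPM in every 4T1 library and was not tested.

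Among 8 tested arachidonic acid enzymes, 4 were higher and 3 lower. Prostaglandin E synthase (Ptges) rose from 9.47 ± 0.953 to 44.7 ± 5.05 CPM, while cyclooxygenase 2 (Ptgs2) fell from 375 ± 94.6 to 119 ± 25.9 CPM (edgeR adjusted p = 2.2e-06 and 0.000174). Conjugation and detoxification genes were split, with 4 of 10 tested higher and 4 lower, among them Gstt1 at a log2 fold change of 5.13 (SE 0.43, adjusted p = 1.88e-05) and the quinone reductase Nqo1 at -1.22 (SE 0.15, adjusted p = 0.000181). Gstt1, at 0.325 ± 0.273 CPM in vitro, passed the filter on low counts only through the in vivo group, so it had to differ. Cyp51, the P450 of cholesterol synthesis, was lower by -0.96 (SE 0.12, adjusted p = 0.000191).

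In niche epithelium, Cyp2f2, Cyp2b10, Cyp4b1 and Cyp2s1, among the highest P450 genes of distal epithelium, were far lower. Cyp4f13, also among the 5 highest in distal libraries, stayed among the 5 highest in niche libraries. Cyp1b1, the oxysterol hydroxylase Cyp7b1 and the retinoic acid hydroxylase Cyp26b1 were higher in the niche. Of the 94 members, 29 passed the filter on low counts, and of these 8 were higher in the niche, 14 were lower and 7 were not called. Over all 17640 genes tested with edgeR, 54.3% were called, 28.5% higher and 25.8% lower. Of the 29 members 24 did not overlap between groups, as did 64.3% of all genes tested. The median log2 fold change of the 29 was -0.49 against 0.02 over all genes tested. Members that passed the filter only through libraries where they were high had to differ, and they are among these counts. Cyp2a5, Cyp4f39 and Cyp3a13 passed only through distal libraries, and Cyp24a1 and Cyp2c55 only through niche libraries of either kind. The same limit holds for the comparison of the shSox9 label with distal. With limma on log2(TPM + 1) in place of counts, the share of higher genes among those called moved from 52.5% to 79.4%, the median of all genes from 0.02 to 0.48, and 10 members were higher and 8 lower. The niche libraries labelled shSox9 were compared with the same distal libraries, so their values are set beside and are not a second test: 7 members were higher, 11 lower and 11 not called, and 18 did not overlap between the groups. There 43.8% of all genes were called, 21.7% higher and 22.0% lower, 52.8% did not overlap, and TPM values moved the higher share from 49.7% to 81.8%.

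Among the genes abundant in distal epithelium, 4 were lower in the niche by over an order of magnitude on average. Cyp2f2 (chr7:27119909-27133660, plus strand) was at 472, 490 and 265 CPM in distal, 17.7, 19.4 and 12.1 in niche and 5.69, 9.31 and 12.6 under the shSox9 label. The distal level was 24.8-fold that of the niche (log2 fold change -4.63, SE 0.32, edgeR adjusted p = 7.67e-07). Every distal library exceeded every niche library by over an order of magnitude. For the libraries labelled shSox9 against distal, the log2 fold change was -5.48 (SE 0.34, adjusted p = 9.42e-07).

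Cyp2b10 (chr7:25897620-25926624, plus strand), the gene that the xenobiotic receptor Nr1i3 induces in liver, was at 99.8, 134 and 102 CPM in distal and 2.34, 3.74 and 1.87 in niche epithelium. The groups were separated by a 41.5-fold difference (log2 fold change -5.37, SE 0.26, edgeR adjusted p = 9.7e-08), and the libraries labelled shSox9 read 2.63, 1.44 and 2.44 CPM. Nr1i3 itself was at 0.566 to 1.24 CPM in distal and at most 0.213 CPM in niche libraries.

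Cyp2s1 (chr7:25802475-25816913, minus strand), a P450 of epithelial barriers, was at 103, 92.5 and 68.3 CPM in distal, 2.64, 3.13 and 1.81 in niche and 1.79, 0.652 and 0.584 in the niche libraries labelled shSox9. It was 34.2-fold lower in the niche (log2 fold change -5.10, SE 0.31, edgeR adjusted p = 3.08e-07). Cyp4b1 (chr4:115624725-115647723, minus strand) was at 83.8, 127 and 96.5 CPM in distal and 9.06, 9.69 and 3.38 in niche epithelium, 13.7-fold lower (log2 fold change -3.77, SE 0.36, adjusted p = 7.35e-06). Both genes were low in all 6 niche libraries. Cyp2f2, Cyp2b10 and Cyp2s1 lie within 1 stretch of chromosome 7, and 12 of the 94 members lie between Cyp2s1 and Cyp2f2, both included.

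Other falls began from low levels. Cyp2a5, a hydroxylase of coumarin and nicotine, had 98 counts in distal and 1 in niche epithelium, a ratio of library-scaled counts of 0.00727 (95% counting interval 0.000182 to 0.0415), and Cyp4f39, which hydroxylates very long fatty acids, had 120 against 3, a ratio of 0.0178 (0.00362 to 0.0533). Cyp3a13 fell from 1.28 ± 0.359 to 0.121 ± 0.0571 CPM and Cyp2c23, an epoxygenase, from 1.03 ± 0.214 to 0.164 ± 0.173 CPM (edgeR adjusted p = 0.000365 and 0.00615). Cyp2e1, which oxidises ethanol, was at 2.97, 3.61 and 6.505 CPM in distal and 0.850, 1.04 and 3.20 in niche epithelium. Its groups overlapped, and its call (log2 fold change -1.39, SE 0.54, adjusted p = 0.0459) was lost without any 1 of the distal libraries 2 and 3 and the niche libraries 1 and 2 (adjusted p 0.0637 to 0.179) and with TPM.

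The sterol enzymes split. Cyp7b1 (chr3:18071950-18243338, minus strand), which adds a hydroxyl to oxysterols, was at 12.1, 11.4 and 11.7 CPM in distal, 34.4, 29.6 and 38.5 in niche and 38.7, 35.8 and 50.9 in the niche libraries labelled shSox9. It was 2.91-fold higher in the niche, a log2 fold change of 1.54 (SE 0.15, edgeR adjusted p = 1.06e-05), and its distal values were tight and did not overlap. Cyp39a1 was lower, at 20.3, 18.8 and 15.8 CPM in distal against 7.48, 9.86 and 6.81 in niche (log2 fold change -1.18, SE 0.19, adjusted p = 0.000268), though its adjusted p was 0.0516 with TPM. Cyp27a1, the mitochondrial side-chain hydroxylase of bile acid synthesis, was at 22.3 ± 1.85 CPM in distal, 15.9 ± 1.21 in niche and 13.3 ± 2.03 in the libraries labelled shSox9.

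The genes on either side of Cyp7b1 in its pathway were higher with it. Ch25h, which makes the hydroxylated cholesterol that Cyp7b1 acts on, was at 13.1, 12.96 and 11.8 CPM in distal, 71.4, 77.0 and 103 in niche and 35.0, 38.4 and 43.3 under the shSox9 label. The niche level was higher by a log2 fold change of 2.73 (SE 0.15, edgeR adjusted p = 1.81e-07), and Hsd3b7, which takes the product of Cyp7b1 onward, by 0.69 (SE 0.10, adjusted p = 0.000199). Of the 5 tested genes of the oxysterol and vitamin D list, 3 were higher. The receptor of the product, Gpr183, was at 13.7 ± 1.68 CPM in niche and 6.86 ± 1.39 CPM in distal libraries and was not called (log2 fold change 0.99, SE 0.41, adjusted p = 0.0618).

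Cyp1b1 was at 13.2, 10.0 and 11.5 CPM in distal, 58.8, 54.7 and 77.9 in niche and 66.7, 50.8 and 40.2 in the niche libraries labelled shSox9. All 6 niche libraries lay above the distal ones, and the niche mean was 5.50-fold that of distal (log2 fold change 2.46, SE 0.20, edgeR adjusted p = 2.63e-06). Ahr was higher by a log2 fold change of 0.78 (SE 0.13, adjusted p = 0.00035). Cyp1a1 read 0.00, 1.57 and 0.566 CPM in distal and 0.128, 1.52 and 1.39 in niche epithelium, a spread too wide to separate the groups (log2 fold change 0.50, SE 0.98, adjusted p = 0.689).

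Cyp26b1 (chr6:84571414-84593908, minus strand), which degrades retinoic acid, was at 1.24, 0.818 and 1.70 CPM in distal, 4.38, 2.56 and 3.44 in niche and 5.22, 6.28 and 5.84 in the niche libraries labelled shSox9. It was higher in the niche without overlap (log2 fold change 1.47, SE 0.33, edgeR adjusted p = 0.00274). Among 13 tested genes of retinoid handling, 5 were higher and 4 lower. Stra6 rose from 1.02 ± 0.588 to 16.1 ± 6.45 CPM, and the retinaldehyde dehydrogenase Aldh1a1, which makes retinoic acid, fell from 143 ± 40.3 to 62.3 ± 6.12 CPM (adjusted p = 1.27e-05 and 0.000368).

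Cyp24a1 had no count in distal epithelium and was at 0.893, 2.17 and 0.663 CPM in niche and 2.40, 1.77 and 0.637 in the niche libraries labelled shSox9. This was at least 18.6-fold and at least 24.0-fold higher (edgeR adjusted p = 0.00129 and 0.00119). Cyp2c55 had 3 counts in distal and 102 in niche epithelium, a ratio of 24.2 (95% counting interval 8.06 to 119). Both genes passed the filter on low counts only through niche libraries of either kind, so they had to differ from distal. Cyp24a1 was read in 4T1 cells in vivo and Cyp2c55 in both 4T1 groups, and the niche libraries may hold 4T1 RNA.

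The share of 4T1 RNA was estimated from 14 genes of at least 20 CPM in both 4T1 groups and at most 1 CPM in every distal library, a panel added after the data were seen because the panel planned earlier held 1 gene. Their median level was 18.9% ± 4.74 (SD, n = 3) of the in vivo 4T1 level in niche libraries, 15.01% ± 3.89 in those labelled shSox9 and 1.17% ± 0.351 in distal libraries. Expression of these genes by niche cells themselves would count toward the share. The planned panel's 1 gene gave 3.45% in niche libraries (0 to 10.0%) and 0 in those labelled shSox9. At 18.9%, 4T1 RNA would bring 1.504 CPM of Cyp24a1, where the niche exceeded distal by 1.33 CPM (before TMM scaling), and 3.18 CPM of Cyp2c55, where it did so by 1.59. At 3.45% these values would be 0.274 CPM for Cyp24a1 and 0.581 CPM for Cyp2c55. The 18.9% share would bring 0.479 of the 57.5 CPM of Cyp1b1, 0.00670 of the 26.0 CPM of Cyp7b1 and 0.121 of the 2.59 CPM of Cyp26b1.

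In family 4 and among the broadly expressed members the differences were smaller. Cyp4f16 was higher in the niche, at 33.8 ± 2.83 against 19.2 ± 2.72 CPM, and Cyp20a1 was higher at 60.0 ± 8.89 against 35.0 ± 4.88 CPM (edgeR adjusted p = 0.00051 and 0.000903). Of these rises, 4T1 RNA at a share of 18.9% would bring 5.27 of 19.1 CPM for Cyp4f16 and 11.8 of 32.8 CPM for Cyp20a1 before TMM scaling. Cyp4f18, which inactivates leukotriene B4 in myeloid cells, was at 8.77, 5.73 and 8.70 CPM in distal, 15.01, 11.1 and 14.2 in niche and 9.22, 6.61 and 7.80 in the niche libraries labelled shSox9 (niche against distal, log2 fold change 0.80, SE 0.22, adjusted p = 0.00869). Its niche libraries were the high ones.

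Cyp4f13 was lower in the niche on counts, at 28.2 ± 2.12 against 42.5 ± 6.05 CPM (log2 fold change -0.60, SE 0.12, edgeR adjusted p = 0.0013), but changed sign with TPM (0.03, against a median of 0.48 over all genes on that scale). Cyp2d22 (chr15:82370527-82380260, minus strand) was at 19.5, 23.0 and 18.7 CPM in distal and 10.3, 12.6 and 9.41 in niche epithelium (log2 fold change -0.92, SE 0.20, adjusted p = 0.00253), a call lost with TPM (adjusted p = 0.15). The epoxygenases Cyp2j6, at 22.9 ± 6.23 in distal and 23.6 ± 2.42 in niche, and Cyp2j9, at 13.5 ± 1.46 and 12.1 ± 4.59 CPM, overlapped between the groups. Besides Cyp24a1, members such as Cyp2f2, Cyp2s1, Cyp2u1, Cyp4f18 and Cyp4v3 overlap another annotated gene, and reads of such pairs may not be told apart. Members in clusters of near relatives (2c, 2d, 2j, 3a and 4f) depend on how shared reads were split between copies.

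**Figure D4:**
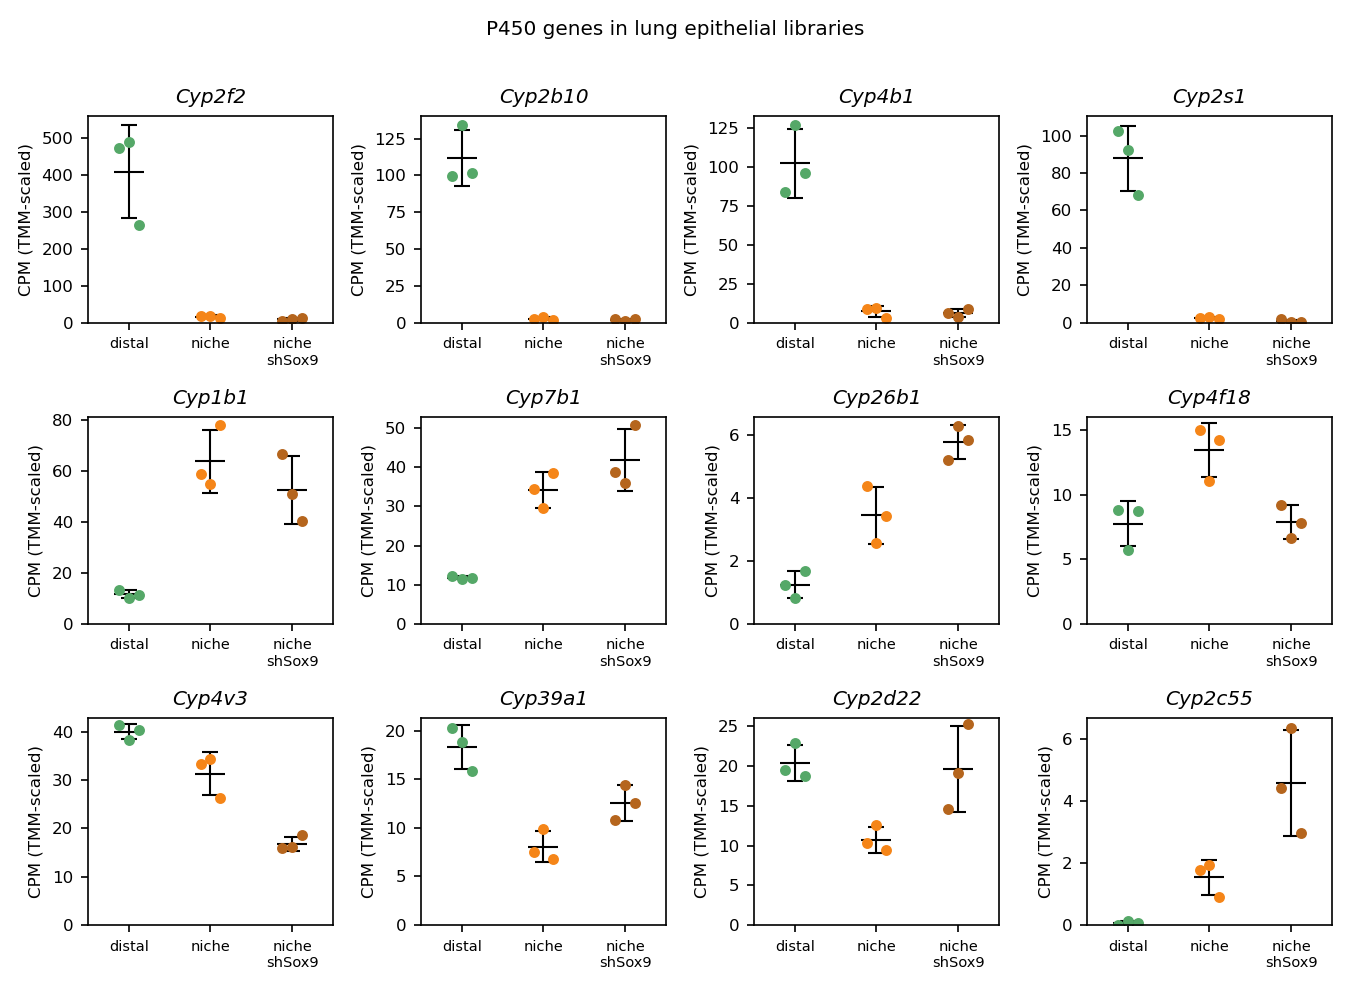
Levels of P450 genes in the 9 epithelial libraries, as CPM after TMM scaling on linear axes from 0, with 1 point per library and bars for the group mean and 1 SD. Cyp2f2, Cyp2b10, Cyp2s1 and Cyp4b1 are highest in distal libraries, and Cyp1b1, Cyp7b1 and Cyp26b1 are higher in both kinds of niche library.

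**Figure D5:**
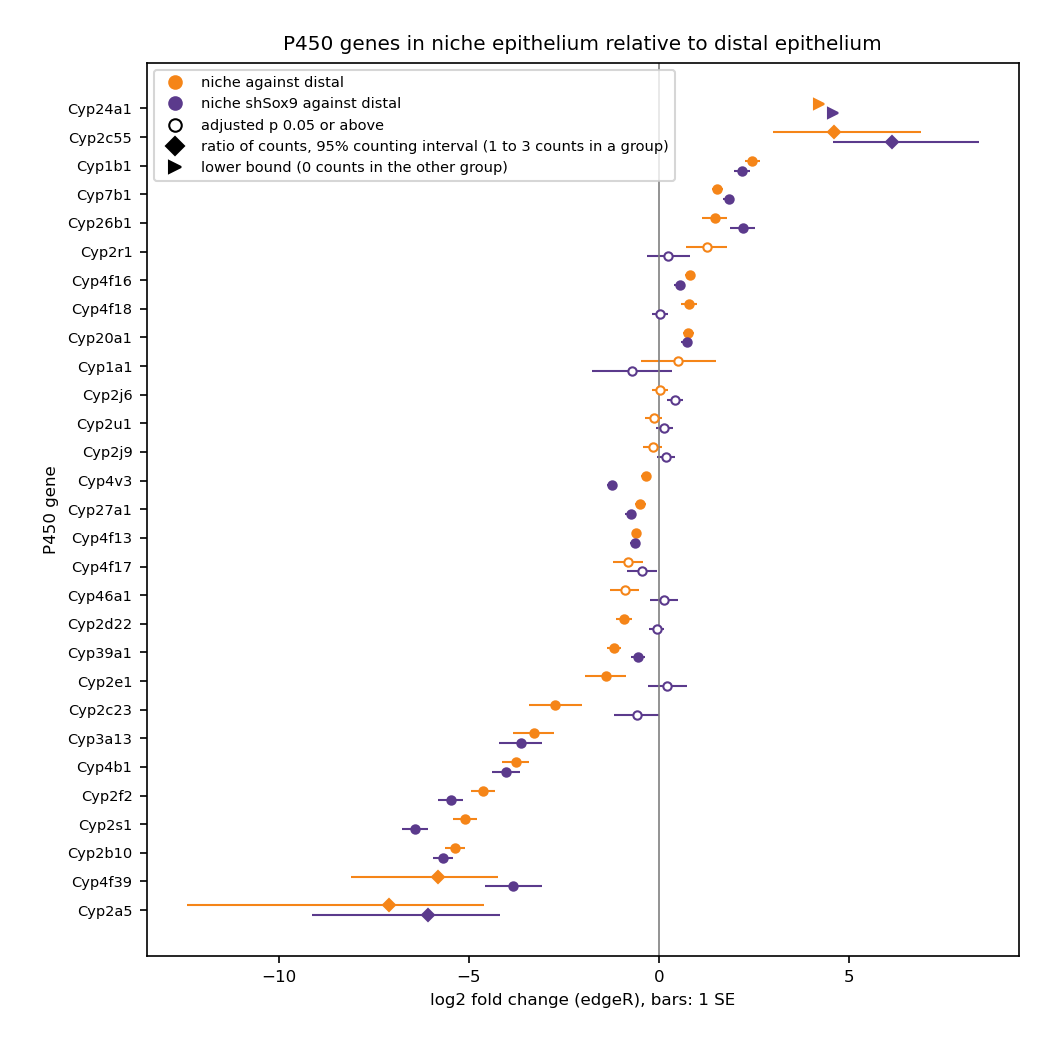
Log2 fold changes of the 29 tested P450 genes against distal epithelium, for niche libraries (orange) and niche libraries labelled shSox9 (purple), with bars of 1 SE. Open points had an adjusted p of 0.05 or above, diamonds are ratios of counts with 95% counting intervals, and arrowheads are lower bounds. Both comparisons share the distal libraries.

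Most lists of airway and alveolar markers fell along with these genes. All 6 tested club cell markers were lower in the niche, and the 7 on the list summed to 1602 to 4445 TPM in distal, 279 to 425 in niche and 102 to 306 under the shSox9 label. The 7 ciliated markers were lower too, at 202 to 297 TPM in distal against 9.11 to 17.6 in niche, as were 6 of 7 alveolar type 1 markers and all 8 AT2 markers. Of 4 basal cell markers, 2 were higher and 1 lower, with sums of 2.86 to 9.58 TPM in distal, 29.4 to 50.8 in niche and 40.0 to 47.2 in 4T1 cells in vivo. Macrophage markers went the other way from the airway lists, with 8 of 8 higher and sums of 147 to 219 TPM in distal, 2635 to 3642 in niche and 129 to 780 in the libraries labelled shSox9, and Marco at 0 in distal. Of 7 fibroblast markers, 5 were higher, at 819 to 1030 TPM in distal against 3925 to 4463 in niche. The part of these cells in the P450 differences was not tested.

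Among redox, heme and conjugation genes, more were lower than higher in the niche on counts, where 25.8% of all genes tested were lower. Of 15 conjugation and detoxification genes, 11 were lower and 1 higher, with Gsta4 at a log2 fold change of -2.32 (SE 0.15, edgeR adjusted p = 3.64e-07), Gstm1 at -2.00 (SE 0.16, adjusted p = 2.2e-06) and the epoxide hydrolase Ephx1 at -1.70 (SE 0.17, adjusted p = 1.17e-05). Of 9 redox partners, 5 were lower, including Por, at 195 ± 23.1 in distal and 118 ± 4.8 CPM in niche (adjusted p = 0.00014). With TPM the calls of Por (adjusted p = 0.429), Fdx1 (0.577) and Cyb5a (0.0528) were lost and that of Cyb5b was kept. Of 10 heme genes, 5 were lower, led by Alad at -1.58 (SE 0.14, adjusted p = 3.33e-06) and the rate-limiting Alas1 at -1.01 (SE 0.15, adjusted p = 0.000177), both kept with TPM, where Cpox was lost (adjusted p = 0.454) and Urod turned to 0.26. The flavin monooxygenase Fmo2, a further abundant lung oxygenase, fell from 479 ± 92.0 to 190 ± 3.26 CPM (adjusted p = 1.49e-05).

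Arachidonic acid enzymes were mixed, with 5 of 12 tested higher and 1 lower. Thromboxane synthase (Tbxas1), a P450 outside the naming rule, rose from 6.91 ± 0.862 to 52.9 ± 5.27 CPM, and the leukotriene enzymes Alox5, Alox5ap and Ltc4s rose by log2 fold changes of 1.73, 1.77 and 2.99 (edgeR adjusted p = 0.00146, 0.00337 and 0.000663). Cyclooxygenase 1 (Ptgs1) fell from 209 ± 34.5 to 62.0 ± 6.62 CPM (adjusted p = 1.92e-06). These leukotriene enzymes and Tbxas1 are typical of myeloid cells, of which the macrophage marker sums stand above. None of the 4 tested neutrophil markers was called, and the neutrophil list summed to 64.5 to 172 TPM in distal and 68.7 to 140 in niche. The part of these cells in the rises was not tested.

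Between the 2 kinds of niche library, P450 genes were called about as often as genes at large. In the niche libraries labelled shSox9, 3 of the 29 tested members were higher than in niche libraries, 3 were lower and 23 were not called, where 20.5% of all genes tested were called, 9.68% higher and 10.8% lower. With the DESeq2 test 6 were higher and 4 lower, counts that the shares above, which are from edgeR, do not serve as a background for. The members' median log2 fold change was 0.29 against 0.02 over all genes tested. Sox9 was not lower under the shSox9 label, but 4T1 cells also express it, so these are given as differences between labels only.

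Cyp4v3 was at 33.3, 34.5 and 26.2 CPM in niche and 15.99, 16.1 and 18.5 in the libraries labelled shSox9. All of the latter were lower, by a log2 fold change of -0.90 (SE 0.13, edgeR adjusted p = 0.000729). Cyp2d22 was the clearest rise, from 10.3, 12.6 and 9.41 to 14.6, 19.1 and 25.3 CPM (log2 fold change 0.87, SE 0.20, adjusted p = 0.0113). These 2 calls held without any single library of either group. Against distal epithelium Cyp4v3 stood at -1.25 (SE 0.13) and Cyp2d22 at -0.05 (SE 0.20).

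The remaining 4 calls were close to the threshold. Cyp4f18 fell from 13.4 ± 2.08 to 7.88 ± 1.31 CPM (log2 fold change -0.77, SE 0.21, edgeR adjusted p = 0.0258) and Cyp2s1 from 2.52 ± 0.667 to 1.01 ± 0.676 (-1.32, SE 0.38, adjusted p = 0.0286). Cyp2c55 rose from 1.79, 1.96 and 0.905 to 4.42, 6.38 and 2.97 CPM (1.55, SE 0.43, adjusted p = 0.0258), and Cyp39a1 from 8.05 ± 1.60 to 12.6 ± 1.81 (0.64, SE 0.19, adjusted p = 0.032). The groups did not overlap for any of these 4 genes, a separation that 37.9% of all genes tested also showed. Each call was lost without the niche library 1 or the shSox9 library 2. Besides these, Cyp4f18 lost it without niche 3 or shSox9 3, Cyp2s1 without niche 2 or shSox9 3, Cyp39a1 without niche 3 or shSox9 3, and Cyp2c55 without niche 2 or niche 3 (adjusted p 0.0523 to 0.122 over all of these).

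Cyp2c55 in the libraries labelled shSox9 averaged 4.93 CPM before TMM scaling, of which a share of 15.01% of in vivo 4T1 RNA would bring 2.52 CPM. Cyp2f2 missed the threshold, at -0.85 (SE 0.30, edgeR adjusted p = 0.072), but was called with DESeq2 (adjusted p = 0.0235), with no filter on low counts (adjusted p = 0.000536) and without the shSox9 library 3 (adjusted p = 0.0451). Cyp1b1 (-0.28, SE 0.19, adjusted p = 0.331), Cyp7b1 (0.29, SE 0.15, adjusted p = 0.19) and Cyp26b1 (0.74, SE 0.29, adjusted p = 0.102) were not called, although the 3 values of Cyp26b1 under the shSox9 label all exceeded those of the niche. A p above the threshold does not show that these levels were alike.

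Some partner genes also differed between the niche groups. Ch25h was lower under the shSox9 label by a log2 fold change of -1.10 (SE 0.14, edgeR adjusted p = 0.000424), Alox5 by -1.99 (SE 0.35, adjusted p = 0.00252) and Tbxas1, at 15.8, 2.14 and 4.88 against 58.1, 47.6 and 52.9 CPM, by -2.80 (SE 0.50, adjusted p = 0.00276). Fmo2 and Gstm1 were higher, by 0.73 (SE 0.14, adjusted p = 0.00381) and 0.85 (SE 0.16, adjusted p = 0.00351). Macrophage markers were lower for 7 of 8 and AT2 markers higher for 8 of 8, at 68503 to 116027 TPM against 19097 to 24781, and their part in the P450 differences was not tested.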

How the data were processed

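Transcript abundance was measured in 15 libraries, 3 in each of 5 groups taken from sample titles. The authors quantified reads with RSEM against GRCm38, per the submitters' processing notes, which also name DESeq2 without versions. Not given in the sources used here are the aligner, annotation and strand setting. Expected counts, as deposited, split shared reads between genes and were rounded before testing. The deposited TPM values are length-scaled by the authors' RSEM run, per the file headers, and were used for levels between genes, marker sums and 1 alternative. The deposited FPKM values were not used.

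Gene identifiers were matched to GENCODE M21 (54809 of 54838). Counts were tested with edgeR 4.0.16 in R 4.3.3 (quasi-likelihood F-test, TMM, filterByExpr), with p-values adjusted by the Benjamini-Hochberg method for every gene tested and called below 0.05. The 6 4T1 libraries and the 9 epithelial libraries were fitted separately. Errors of levels are SD over 3 libraries. Standard errors were derived from fold changes and F statistics. A group with 0 counts was set to a floor of 3 counts, and 1 to 3 counts gave a ratio with a 95% exact counting interval. Both cover counting error only. Between libraries of a group, chi-square over its degrees of freedom was 8.27 to 43.4, and each library counted as 1 sample.

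The members, gene lists, markers and tests were chosen with earlier results of these data known. Named members had an adjusted p below 0.05 and 1 CPM or more in the higher group, at most 12 in each direction, or were among the 5 highest by TPM in a group. Named partners were up to 4 called genes per list with at least 5 CPM. In data simulated from the same libraries, 73 of 100 genes changed 2-fold and 95 of 100 changed 4-fold were called in 4T1 cells (14022 genes), and 52 and 81 of 100 for niche against distal (17640 genes). Alternatives used DESeq2 1.42.0 and limma 3.58.1 on log2(TPM + 1), other filters, a replicate block, fewer groups and each library left out. Promoter sequences are from RefSeq (GRCm38.p6). The result for 1 named partner is not reported here.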

Additional observations from a re-analysis of the deposited data

How the results depend on the processing

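No paired design is stated. Correlations of deviations between libraries of the same letter were -0.03 to 0.11 across genes, and in no pair of groups did all exceed 0.1. Between niche and shSox9 libraries every library correlated best with its own letter (0.0755 to 0.107), a hint from the data, not the design. The distal library titled R1 has no letter and was numbered 1. With this number as a replicate block 10 members were higher and 3 lower in 4T1 cells, 8 and 14 in niche against distal, 4 and 3 in libraries labelled shSox9 (called shSox9 below) against niche, and 7 and 11 in shSox9 against distal. With 1 library left out, 9 to 11 members were higher and 2 to 3 lower in 4T1 cells, 8 higher and 11 to 13 lower in niche against distal, 1 to 4 higher and 1 to 3 lower in shSox9 against niche, and 7 to 8 higher and 10 to 11 lower in shSox9 against distal. The counts that moved most were those of shSox9 against niche, where DESeq2 size factors gave 5 higher members and the DESeq2 test 6, each including the 3 called by edgeR, and those with TPM, which gave 8 lower members in niche against distal and 11 higher in shSox9 against distal. Some signs changed. Cyp2j6 in niche against distal was 0.04 with edgeR and -0.0047 with DESeq2 size factors, -0.0038 with the DESeq2 test and -0.0371 with only the 2 groups fitted, and ran from -0.16 to 0.214 with 1 library left out (below 0 without distal 3 or niche 3). With TPM, Cyp4f13 was at 0.0321, 0.0034 and 0.0355 in niche against distal, shSox9 against niche and shSox9 against distal, Urod and Nfe2l2 were at 0.26 and 0.23 in niche against distal, and Cyp39a1, Fdx1, Por, Hmox1, Nfe2l2 and Fmo2 at 0.0793, 0.00879, 0.11, 0.0634, 0.16 and 0.0273 in shSox9 against distal, where the median of all genes was 0.44 with TPM. In shSox9 against niche with 1 library left out, Cyp20a1 ran from -0.12 to 0.0864 (above 0 without niche 3 or shSox9 1), Cyp2b10 from -0.486 to 0.027 (without niche 2), Cyp4f13 from -0.0841 to 0.0168 (without niche 3) and Cyp4b1 from -0.575 to 0.0036 (without shSox9 2). The cause was not tested. The share of 4T1 RNA rested on the panel: the 1 planned gene gave 3.45% in niche and 0 in distal and shSox9 libraries, a panel of 9 genes 20.2%, 0.925% and 16.5% in niche, distal and shSox9 libraries, and the added 14 genes 18.9%, 1.17% and 15.01%. No gene met the stricter limits of 50 and 0.1 CPM. The numbers of members above 1 CPM stayed within 1.5 times under thresholds of 0.5 and 2 CPM, TMM scaling, TPM and each library left out. Genes under 3 counts in a group (0.0986 to 0.189 CPM in 1 library) cannot be told from 0.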
